A study of Mus musculus with 16 samples.

Results

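Mybpc3, Slc2a6, Dnase1l2, Il18r1, Npy and S100b were selected on a large fall of their RNA in mouse thyroid glands that lack functional GLIS3, so their levels and differences are a description and carry no test. They are 6 of the 25611 entries of the gene counts, and of the 16630 entries with enough counts to be tested. RNA was sequenced from thyroids of 16 female mice of strain C57BL/6, aged 1 month, with 4 mice in each of 4 groups. WT mice and Glis3-Pax8Cre mice (alleles Glis3<tm2Amj> and Pax8<tm1.1(cre)Mbu>, background B6;129) were fed for 6 days a normal diet, ND (NIH-31), or a low iodine diet, LID (TD.95125). In Glis3-Pax8Cre mice, Cre driven by Pax8 deletes a Glis3 exon that encodes part of the zinc fingers, and whether the WT mice carried a floxed or a Cre allele is not given. The question taken up is which of the 6 genes fell on either diet and which fell only where iodine was low.

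GLIS3 is a Krüppel-like zinc finger transcription factor that follicular cells of the thyroid need to make thyroid hormone. Low iodine intake lowers thyroid hormone and raises thyroid stimulating hormone (TSH), which acts on follicular cells through its receptor, TSHR. Mybpc3 encodes the cardiac form of myosin-binding protein C, a protein of the sarcomere, and Slc2a6 encodes GLUT6, a facilitative sugar transporter. Dnase1l2 encodes a secreted-type DNase known from the skin, and Il18r1 encodes the ligand-binding chain of the interleukin-18 receptor. Npy encodes the precursor of neuropeptide Y, a peptide of neurons and endocrine cells, and S100b encodes a calcium-binding protein best known from glia.

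The promoter windows of the 6 genes are printed so that the letters upstream of each can be compared. All 6 genes were matched in the RefSeq table (build GRCm38.p6, the mm10 assembly), with 8 windows in all because Il18r1 has 3, of which the most upstream is shown. Each window runs from 250 bases before to 50 bases after the start of the gene: chr2:91117894-91118193 (+) for Mybpc3, chr2:27027949-27028248 (-) for Slc2a6, chr17:24443052-24443351 (-) for Dnase1l2, chr1:40465302-40465601 (+) for Il18r1, chr6:49822460-49822759 (+) for Npy and chr10:76253586-76253885 (+) for S100b. Capitals mark the CCAAT motif, the motif GGGCGG, and the motif CAAGTG, on either strand.
Mybpc3: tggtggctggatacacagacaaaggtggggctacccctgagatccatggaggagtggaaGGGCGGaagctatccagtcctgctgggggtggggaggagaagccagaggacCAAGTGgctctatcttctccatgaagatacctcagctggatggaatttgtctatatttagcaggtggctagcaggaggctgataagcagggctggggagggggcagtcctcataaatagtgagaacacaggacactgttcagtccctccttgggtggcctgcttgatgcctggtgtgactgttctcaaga
Slc2a6: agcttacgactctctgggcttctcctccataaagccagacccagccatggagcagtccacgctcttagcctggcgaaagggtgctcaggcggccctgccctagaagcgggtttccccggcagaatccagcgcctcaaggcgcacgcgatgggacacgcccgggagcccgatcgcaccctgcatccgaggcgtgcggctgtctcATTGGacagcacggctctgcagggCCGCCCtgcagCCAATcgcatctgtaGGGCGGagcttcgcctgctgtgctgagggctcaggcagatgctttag
Dnase1l2: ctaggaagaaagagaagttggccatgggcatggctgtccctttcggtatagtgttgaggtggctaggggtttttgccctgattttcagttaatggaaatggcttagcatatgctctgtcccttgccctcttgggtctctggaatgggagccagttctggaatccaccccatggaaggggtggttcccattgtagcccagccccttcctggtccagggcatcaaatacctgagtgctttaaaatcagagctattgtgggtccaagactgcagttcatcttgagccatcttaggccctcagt
Il18r1: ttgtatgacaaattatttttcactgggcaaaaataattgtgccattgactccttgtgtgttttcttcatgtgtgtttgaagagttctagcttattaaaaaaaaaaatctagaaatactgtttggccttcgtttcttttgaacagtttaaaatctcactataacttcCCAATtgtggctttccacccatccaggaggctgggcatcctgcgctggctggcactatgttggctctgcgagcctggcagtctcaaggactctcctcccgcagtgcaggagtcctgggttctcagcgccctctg
Npy: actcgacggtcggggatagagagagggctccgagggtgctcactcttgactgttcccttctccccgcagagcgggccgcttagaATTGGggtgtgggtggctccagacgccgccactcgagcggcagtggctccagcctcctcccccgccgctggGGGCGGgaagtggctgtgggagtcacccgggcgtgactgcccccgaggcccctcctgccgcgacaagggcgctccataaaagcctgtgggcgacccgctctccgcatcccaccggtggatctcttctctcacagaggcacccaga
S100b: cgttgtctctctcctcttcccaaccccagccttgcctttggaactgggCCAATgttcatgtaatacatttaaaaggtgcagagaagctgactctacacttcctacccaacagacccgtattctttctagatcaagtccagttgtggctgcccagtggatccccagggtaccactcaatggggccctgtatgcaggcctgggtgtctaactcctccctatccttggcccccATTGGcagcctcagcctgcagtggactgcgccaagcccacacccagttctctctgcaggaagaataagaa

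Of 8 motifs searched on both strands, 5 had no match in the 8 windows. These were TGGGGGGT (in 1.53% of all 32851 mouse promoters), TGGGNGGT (6.10%), which includes the former, TGACGTCA (1.79%), its shorter form TGACG (20.8%) and TATAAA (13.6%). CCAAT was in 5 of the 8 windows (37.4% of all promoters), of which 2 are overlapping windows of Il18r1 that hold the same match, so that 4 of the 6 genes had it. It lay at -12 and -47 in Slc2a6, -84 in the printed Il18r1 window, -166 in Npy and -20 and -202 in S100b. GGGCGG was in 3 windows (35.7% of all promoters), at -191 in Mybpc3, at -23 and 4 in Slc2a6 and at -95 in Npy. CAAGTG was in 1 window (13.6% of all promoters), at -140 in Mybpc3, and Dnase1l2 held none of the 8. Positions count from the start of the gene and name the leftmost base as printed, and a match is a description of letters, not a site.

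Counts were scaled by TMM, a normalization that assumes most genes keep their level, and are given as CPM, the unit of edgeR for counts as a share of the scaled library. Glis3 itself, over replicates 1 to 4, had 79.2, 85.8, 81.8 and 45.2 CPM in the WT(ND) mice and 105, 93.0, 101 and 85.8 CPM in the Glis3-Pax8Cre(ND) mice. On the low iodine diet the WT mice had 125, 174, 165 and 161 CPM of Glis3, and the Glis3-Pax8Cre mice 150.3, 119.5, 204 and 185 CPM. Glis3 RNA was higher under LID than on ND, and the genotypes overlapped under LID. The counts cover the whole gene and do not separate the deleted exon, so they do not show the deletion.

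WT(ND) replicate 3 was the lowest mouse of its group for all 6 genes. It was at 18.0% of the mean of the other 3 WT(ND) mice for S100b, 34.9% for Il18r1, 39.8% for Npy, 40.4% for Dnase1l2 and 52.3% for Slc2a6. For Mybpc3 the 13.6% says little, since it had 2 counts beside 3 in replicate 1, and replicate 4 raised the mean. Across 1345 genes that were called on ND without this mouse and differed by more than 1 on the log2 scale, it lay at a median of 52.9% of the way from the Glis3-Pax8Cre(ND) mean to the mean of the other WT(ND) mice. Replicates 1, 2 and 4, each placed by the 822, 847 and 806 genes called without it, lay at 114.7%, 107.8% and 101.1% of the way to the mean of their fellows, which include replicate 3. Pax8 was at 996 CPM in this mouse against a mean of 385 CPM in the other 3 and 884 CPM in Glis3-Pax8Cre(ND), whereas Slc5a5, the iodide transporter gene, was at 81.8 CPM against 167 and 11.2 CPM. The log2 fold changes of the 6 genes on ND are therefore given with this mouse and with it left out.

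The 6 genes divided by a simple rule. A gene counted as lost on either diet where every Glis3-Pax8Cre(ND) mouse was below every WT(ND) mouse and the log2 fold change on ND was -1 or lower, and otherwise as needing the low iodine diet. By this rule Mybpc3 and Dnase1l2 needed the low iodine diet, and Slc2a6, Il18r1, Npy and S100b were lost on either diet. The nearest values outside the limit of -1 were those of Mybpc3 (-0.98) and Dnase1l2 (-0.95), and the nearest inside was that of Il18r1 (-2.79). Without WT(ND) replicate 3, Dnase1l2 was at -1.17 on ND with no overlap and counted as lost on either diet. Under LID every Glis3-Pax8Cre mouse was below every WT mouse for all 6 genes. That pattern held for 2969 of the 16630 tested genes under LID (17.9%) and for 1656 on ND (9.96%).

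**Figure D1:**
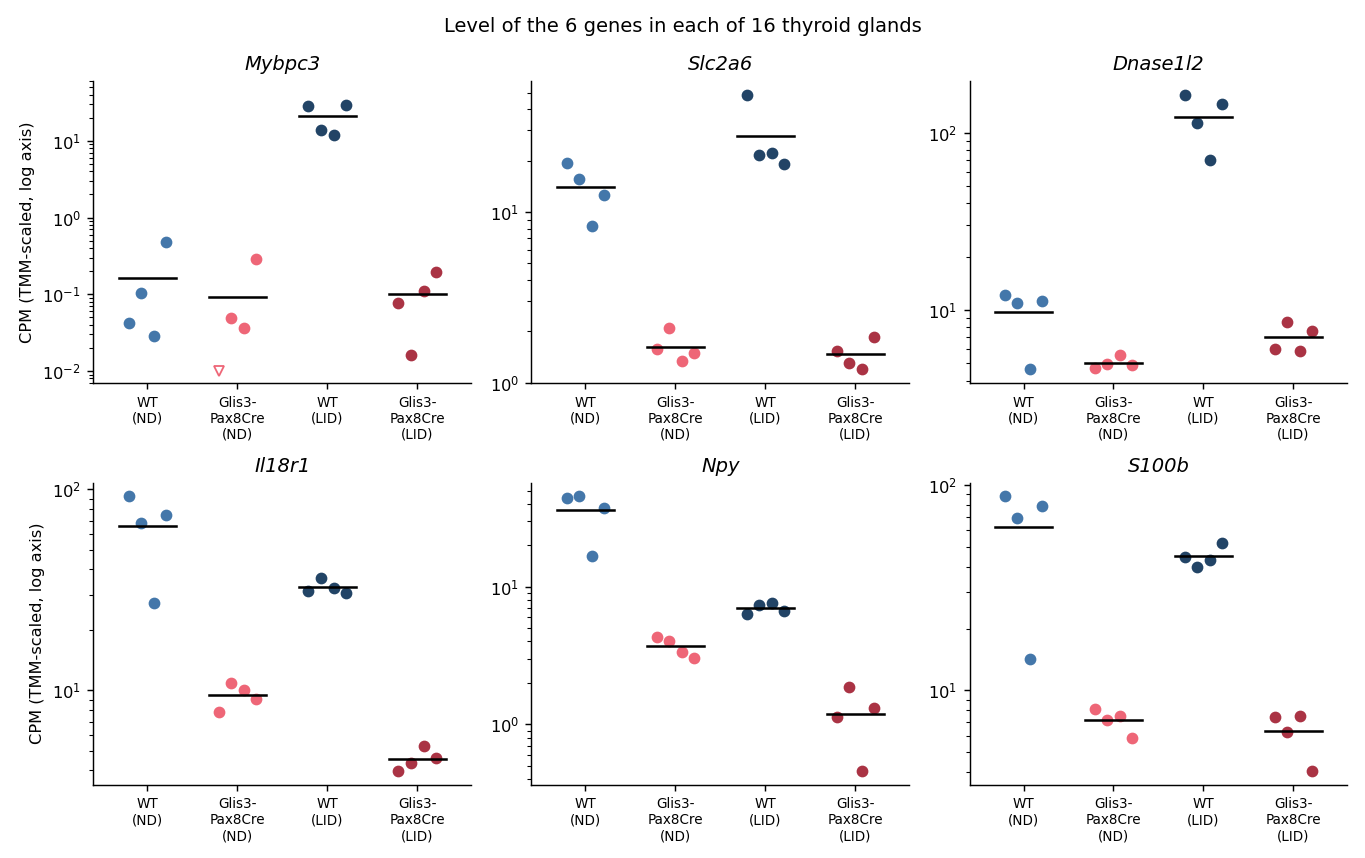
Level of each gene in CPM (log axis) in the 16 mice, by group; points are mice, replicates 1 to 4 from left to right, and bars are group means. The open triangle in the Mybpc3 panel stands for a count of 0, placed at the foot of the axis. Under LID the WT and Glis3-Pax8Cre points do not overlap in any panel, and on ND they overlap for Mybpc3 and Dnase1l2.

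Mybpc3 RNA was nearly confined to WT(LID). In the order of replicates 1 to 4, the WT(LID) mice had 28.3, 13.7, 11.9 and 28.9 CPM and the Glis3-Pax8Cre(LID) mice 0.07774, 0.0163, 0.111 and 0.193 CPM. The WT(ND) mice had 0.0420, 0.103, 0.0283 and 0.479 CPM, and the Glis3-Pax8Cre(ND) mice 0, 0.04841, 0.03605 and 0.285 CPM. Every WT(LID) mouse was far above the other 12, among which the 3 groups overlapped. The values outside WT(LID) rest on few counts: 3, 7, 2 and 213 in WT(ND), 0, 8, 2 and 16 in Glis3-Pax8Cre(ND), and 6, 1, 9 and 11 in Glis3-Pax8Cre(LID), against 664 or more in each WT(LID) mouse.

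The log2 fold change of Mybpc3 between the genotypes under LID was -7.70 (SE 0.95), which left 0.481% of the WT(LID) mean, and it was the second deepest fall of the 16630 genes. On ND the log2 fold change was -0.98 (SE 0.91), smaller than the spread between mice. Its direction rested on single mice: it was 0.78 without WT(ND) replicate 4, -2.33 without Glis3-Pax8Cre(ND) replicate 4 and -1.26 without WT(ND) replicate 3. In WT mice the low iodine diet raised Mybpc3 by 6.71 (SE 0.88) on the log2 scale. In Glis3-Pax8Cre mice the diet difference was -0.01 (SE 1.09), and it turned to 1.23 without Glis3-Pax8Cre(ND) replicate 4.

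Dnase1l2 also rose in WT mice on the low iodine diet, from a level that was measurable in every mouse. The WT(ND) mice, in the order of replicates 1 to 4, had 12.2, 10.99, 4.63 and 11.2 CPM, and the Glis3-Pax8Cre(ND) mice 4.71, 4.97, 5.55 and 4.87 CPM. The WT(LID) mice had 163, 113, 70.2 and 145 CPM, and the Glis3-Pax8Cre(LID) mice 6.03, 8.59, 5.87 and 7.63 CPM. WT(LID) lay far above the rest, and WT(ND) replicate 3 was the lowest of all 16 mice while its 3 fellows were above every Glis3-Pax8Cre mouse. The order of the means was WT(LID), WT(ND), Glis3-Pax8Cre(LID), Glis3-Pax8Cre(ND), and the last of these groups did not overlap its neighbour.

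The fall of Dnase1l2 under LID was -4.13 (log2, SE 0.31), leaving 5.72% of the WT(LID) mean, and ranked 17 of 16630. On ND it was -0.95 (SE 0.28), leaving 51.5%. Without WT(ND) replicate 3 the fall on ND was -1.17 (SE 0.22) and the groups no longer overlapped, so that by the rule above Dnase1l2 would count as lost on either diet. Without Glis3-Pax8Cre(ND) replicate 3 it was -1.01, and the groups still overlapped. The size of the fall nonetheless differed between diets, by -3.18 (SE 0.40), and by -2.97 without WT(ND) replicate 3. The diet raised Dnase1l2 by 3.65 (SE 0.30) in WT and by 0.48 (SE 0.29) in Glis3-Pax8Cre mice.

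Slc2a6 was low in every gland without functional GLIS3. The WT(ND) mice, in the order of replicates 1 to 4, had 19.4, 15.6, 8.29 and 12.5 CPM, and the Glis3-Pax8Cre(ND) mice 1.57, 2.10, 1.33 and 1.5 CPM. The WT(LID) mice had 48.6, 21.4, 22.3 and 19.1 CPM, and the Glis3-Pax8Cre(LID) mice 1.54, 1.30, 1.20 and 1.86 CPM. The genotypes did not overlap on either diet, the WT groups overlapped each other only through WT(ND) replicate 1, and the Glis3-Pax8Cre groups overlapped throughout. WT(LID) replicate 1 was more than double each of its fellows.

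On the log2 scale Slc2a6 was lower by genotype at -4.24 (SE 0.34) under LID and -3.09 (SE 0.33) on ND, leaving 5.31% and 11.6% of the WT means. Without WT(ND) replicate 3 the value on ND was -3.26. These falls ranked 13 under LID and 21 on ND among all tested genes. The diet difference was 1.00 (SE 0.30) in WT, 0.59 without WT(LID) replicate 1, and -0.15 (SE 0.32) in Glis3-Pax8Cre, where it turned to 0.02 without Glis3-Pax8Cre(ND) replicate 2. The genotype difference was larger under LID by -1.15 (SE 0.43), or -0.75 without WT(LID) replicate 1.

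Il18r1 kept a similar proportion of its WT level on both diets. The WT(ND) mice, in the order of replicates 1 to 4, had 92.2, 67.9, 27.3 and 74.9 CPM, and the Glis3-Pax8Cre(ND) mice 7.78, 10.9, 10.1 and 9.06 CPM. The WT(LID) mice had 31.3, 36.3, 32.3 and 30.4 CPM, and the Glis3-Pax8Cre(LID) mice 3.98, 4.36, 5.27 and 4.61 CPM. No Glis3-Pax8Cre mouse reached a WT mouse, the Glis3-Pax8Cre groups did not overlap each other, and the WT groups overlapped only because WT(ND) replicate 3 was low. The fall was -2.84 (SE 0.27) under LID and -2.79 (SE 0.27) on ND, leaving 14% and 14.4%, and -3.03 on ND without WT(ND) replicate 3. The diet lowered Il18r1 in both genotypes, by -1.01 (SE 0.25) in WT and -1.06 (SE 0.26) in Glis3-Pax8Cre, so its highest levels were on ND, opposite to Mybpc3 and Dnase1l2. The difference between the falls was -0.05 (SE 0.36), from -0.28 without WT(ND) replicate 1 to 0.19 without WT(ND) replicate 3.

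Npy fell both by diet and by genotype. The WT(ND) mice, in the order of replicates 1 to 4, had 44.5, 45.3, 16.8 and 37.3 CPM, and the Glis3-Pax8Cre(ND) mice 4.33, 4.02, 3.37 and 3.02 CPM. The WT(LID) mice had 6.35, 7.40, 7.6 and 6.67 CPM, and the Glis3-Pax8Cre(LID) mice 1.13, 1.87, 0.458 and 1.32 CPM. The 4 groups were in the order WT(ND), WT(LID), Glis3-Pax8Cre(ND), Glis3-Pax8Cre(LID), and none overlapped its neighbour. By genotype the log2 fold change was -2.56 (SE 0.36) under LID and -3.29 (SE 0.36) on ND, leaving 17.0% and 10.2%, and -3.52 on ND without WT(ND) replicate 3. Npy had the deepest fall of the 6 on ND, rank 12 of 16630, and the shallowest under LID, rank 95. The diet difference was -2.36 (SE 0.34) in WT and -1.63 (SE 0.35) in Glis3-Pax8Cre.

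S100b was low without functional GLIS3 whatever the diet. The WT(ND) mice, in the order of replicates 1 to 4, had 87.7, 69.2, 14.2 and 78.8 CPM, and the Glis3-Pax8Cre(ND) mice 8.16, 7.17, 7.53 and 5.87 CPM. The WT(LID) mice had 44.6, 40.0, 43.0 and 52.2 CPM, and the Glis3-Pax8Cre(LID) mice 7.46, 6.31, 7.54 and 4.06 CPM. WT(ND) replicate 3, though far below its fellows, was still above every Glis3-Pax8Cre mouse. The WT groups overlapped only through that mouse, and the Glis3-Pax8Cre groups overlapped each other. The fall was -2.82 (SE 0.41) under LID and -3.13 (SE 0.42) on ND, leaving 14.1% and 11.5%, and -3.44 on ND without WT(ND) replicate 3. The diet difference was -0.48 (SE 0.38) in WT, from -0.80 without WT(ND) replicate 3 to -0.26 without WT(ND) replicate 1, and -0.17 (SE 0.39) in Glis3-Pax8Cre, where it was -0.01 without Glis3-Pax8Cre(LID) replicate 4.

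**Figure D2:**
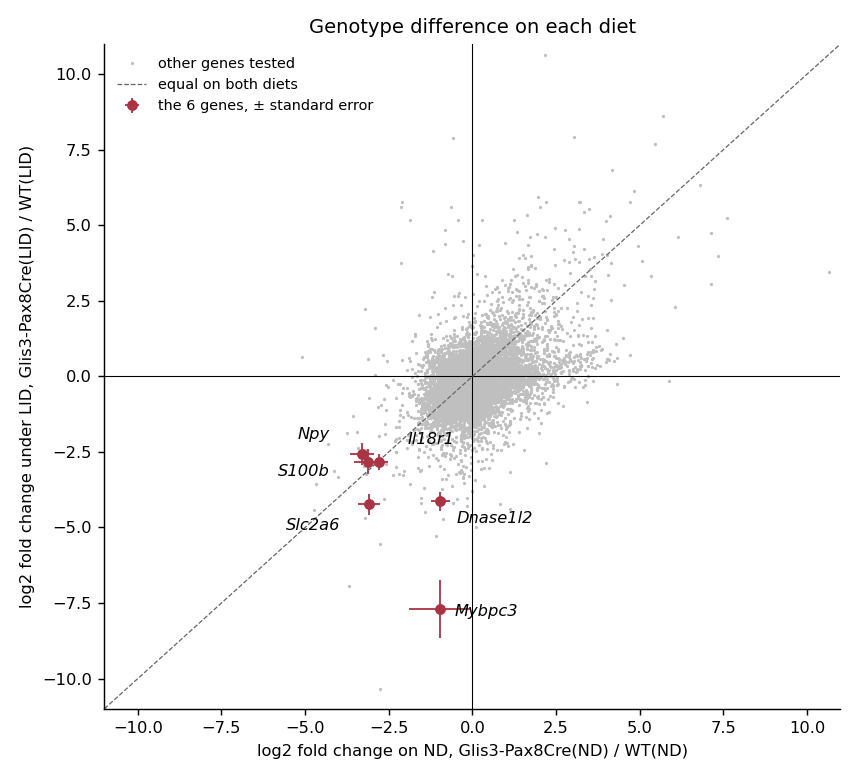
Log2 fold change of Glis3-Pax8Cre against WT on ND (horizontal) and under LID (vertical) for the 16630 tested genes; red points with standard errors are the 6 genes, and the dashed line marks equal differences. Slc2a6, Il18r1, Npy and S100b lie at -2.79 or lower on ND, and Mybpc3 and Dnase1l2 lie near -1 on ND and at -7.70 and -4.13 under LID.

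Across the 6 genes, the difference of the falls between diets ranged from -6.72 (SE 1.32) for Mybpc3 through -3.18 for Dnase1l2 and -1.15 for Slc2a6 to 0.31 (SE 0.55) for S100b and 0.73 (SE 0.48) for Npy. That of Mybpc3 was -8.48 without WT(ND) replicate 4 and -5.38 without Glis3-Pax8Cre(ND) replicate 4. Leaving out 1 mouse at a time gave from 0.08 to 0.62 for S100b and from 0.43 to 0.99 for Npy. Compared per length of transcript, the order of the genes depended on the diet. In WT(ND), the mean RPKM (CPM per kilobase of exon) was 63.6 for Npy, 42.1 for S100b, 13.7 for Il18r1, 6.53 for Slc2a6, 5.08 for Dnase1l2 and 0.0391 for Mybpc3. In WT(LID) it was 64.0 for Dnase1l2, 30.3 for S100b, 13.02 for Slc2a6, 12.4 for Npy, 6.82 for Il18r1 and 4.98 for Mybpc3. In Glis3-Pax8Cre(LID) the 5 genes other than Mybpc3 (0.0239) lay between 0.691 for Slc2a6 and 4.27 for S100b.

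The genes whose levels over the 16 mice were most like those of a member were found by the root mean square difference of centred log2 CPM among 14000 other genes. For Mybpc3 these were Adm2 (1.47), Cpn1 (1.56) and 1700018A04Rik (1.58). Here and later, means of the 4 groups stand in the order WT(ND), Glis3-Pax8Cre(ND), WT(LID), then Glis3-Pax8Cre(LID). Adm2 had means of 5.92, 0.857, 1349 and 1.05 CPM. For Dnase1l2 the nearest were Bace2 (0.532), Tlx1 (0.553) and Slc5a9 (0.558), and Bace2 had means of 40.6, 28.9, 286 and 30.2 CPM. The gene nearest to each was thus high in WT(LID) alone.

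For Slc2a6 the most alike were Anxa9 (0.611), Crocc2 (0.694) and Mboat2 (0.716), with Anxa9 at means of 20.8, 5.03, 36.1 and 4.13 CPM. For Il18r1 they were Greb1 (0.327), Wisp1 (0.344) and Homer2 (0.377), for Npy Wisp1 (0.643), D630003M21Rik (0.681) and Tmem213 (0.706), and for S100b Mboat2 (0.376), Homer2 (0.455) and Gipc2 (0.467). Wisp1, near both Il18r1 and Npy, had means of 208, 34.8, 103 and 13.9 CPM. Among the 6 genes themselves, Il18r1 and S100b were most alike (0.513), and Mybpc3 and Npy least (3.75).

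Genes of the same families and systems, taken from lists, were tested with edgeR, and calls rest on an adjusted p below 0.05. Such p-values measure differences against the spread between mice. Of 122 genes listed, 100 were tested. Under LID, 20 of the 100 were lower and 13 higher in Glis3-Pax8Cre, against 15.4% lower and 14.9% higher of all genes tested. On ND, 14 were lower and 13 higher, against 9.25% and 10.3%. The higher count fell to 8 under LID without WT(LID) replicate 2, and to 8 on ND without WT(ND) replicate 1. Over all genes the counts on ND also depended on single WT(ND) mice: 1538 were lower, but 926 without replicate 4, and 1714 were higher, but 1120, 1132 and 1127 without replicate 1, 2 or 4. Scaling by library size alone moved the median of all genes by 0.15 under LID and 0.12 on ND, and gave 1841 lower and 4122 higher genes in place of 2557 and 2471 under LID, and 935 and 2719 on ND.

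Of 34 genes of the sarcomere list tested beside Mybpc3, 4 were lower and 2 higher under LID, with a median log2 fold change of 0.04 (all genes, 0.01). On ND 4 were higher, with a median of 1.84 (all genes, 0.02), and 0 lower by edgeR or DESeq2, with 1 lower at an unadjusted p under 0.05. The skeletal muscle markers had a median of 2.02 on ND as well, and their sums, given below, ranged widely between mice of a group. Tnnt2, cardiac troponin T, had few counts and was high in WT(LID) alone, as Mybpc3 was: the WT(LID) mice had 1.24, 0.804, 1.19 and 1.38 CPM, and no other mouse was above 0.321 CPM. Tnnt2 is described without a p because it was picked for its group means. Tnni1, also among the 4 lower under LID (-2.86, SE 0.64), had 26 counts or fewer in every mouse. On ND it was higher (2.20, SE 0.67, edgeR adjusted p = 0.0306), with overlapping genotypes. That call on ND was lost without replicate 1 or 4 of WT(ND), or replicate 1 or 4 of Glis3-Pax8Cre(ND). Myl9 is on the list but encodes a regulatory light chain of smooth muscle and non-muscle myosin, not a sarcomere protein. Under LID Myl9 had a mean of 58.8 CPM in WT and 23.9 CPM in Glis3-Pax8Cre mice, with no overlap of the groups. The log2 fold change of Myl9 there was -1.30 (SE 0.19, edgeR adjusted p = 0.000126). On ND its means were 20.3 and 19.4 CPM, and its genotype differences on the diets differed by -1.23 (adjusted p = 0.00802). Nebl, which encodes a Z-disc protein, was lower under LID (-0.97, SE 0.19, adjusted p = 0.00110). Cardiac troponin I (Tnni3) was higher on ND, at 2.35 against 0.877 CPM (1.44, SE 0.29, adjusted p = 0.00302), with overlapping groups, and slow troponin T (Tnnt1) was higher on ND (2.44, SE 0.46, adjusted p = 0.00214). Myh8 was higher on ND as well (10.67, SE 3.0, edgeR adjusted p = 0.0261). It was at 1.99 and no longer called without Glis3-Pax8Cre(ND) replicate 1.

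Glucose transporter genes included several that were lower, though by less than Slc2a6. Of 11 tested, 4 were lower and 1 higher under LID (median -0.58), and 3 were lower and 1 higher on ND, where the median of -0.09 turned to 0.03 with library size alone. Slc2a1, the widespread transporter GLUT1, had means of 70.7 CPM in WT and 40.0 CPM in Glis3-Pax8Cre mice under LID (-0.82, SE 0.10, adjusted p = 2.02e-05) and of 40.7 and 26.6 CPM on ND (-0.61, SE 0.10, adjusted p = 0.000818), with no overlap on either diet. Slc2a12 was also lower on both, by -0.97 (adjusted p = 0.000726) and -0.94 (adjusted p = 0.00228). Slc2a10 and the inositol transporter gene Slc2a13 were lower under LID, by -0.80 (adjusted p = 3.98e-05) and -1.43 (adjusted p = 5.31e-05). The genotype difference of Slc2a13 was lower under LID than on ND by -2.06 (adjusted p = 0.000187). The sodium-coupled transporter gene Slc5a1 was higher under LID, at 1.29 against 0.395 CPM (1.69, adjusted p = 0.000334).

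Of 8 other nuclease genes tested beside Dnase1l2, 2 were higher under LID and 1 on ND, with medians of 0.08 and 0.04. On each diet 0 were lower by edgeR, with 1 at an unadjusted p under 0.05 and 1 by DESeq2. Dnase2a, a lysosomal nuclease gene, was higher under LID (0.53, SE 0.12, adjusted p = 0.00397), at 28.4 against 19.7 CPM. Dnase1l3 was higher on ND (1.90, SE 0.45, adjusted p = 0.00866), at 4.54 against 1.22 CPM, with no overlap of the groups in either case.

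The partners of the interleukin-18 receptor were low and were not called. Il18, the ligand gene, had means of 1.94, 2.18, 1.43 and 1.22 CPM, with log2 fold changes of -0.23 (SE 0.16) under LID and 0.16 (SE 0.16) on ND. Il18rap, the second chain of the receptor, had means of 0.716, 0.916, 0.877 and 0.610 CPM, and its genotype differences were -0.52 (SE 0.40) and 0.35 (SE 0.40). Il18bp, a decoy for the ligand, had means of 4.04, 5.69, 3.28 and 3.40 CPM, with differences of 0.05 (SE 0.25) and 0.50 (SE 0.25), the former turning to -0.05 without Glis3-Pax8Cre(LID) replicate 4. None of these log2 fold changes was near that of Il18r1.

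Of 20 genes of the interleukin-18 and interleukin-1 system tested, 6 were lower and 1 higher under LID (median -0.28), but 3 and 2 with library size alone. On ND 3 were lower and 1 higher, or 2 and 2 with library size alone, and the median of -0.03 turned to 0.09 with library size alone and 0.04 with DESeq2. Irak2, a kinase gene of the pathway, was lower on both diets, by -0.99 (SE 0.15, adjusted p = 0.000119) under LID and -1.0 (SE 0.15, adjusted p = 0.000360) on ND. Il1r1, the interleukin-1 receptor gene, was lower by -0.94 (adjusted p = 0.000461) and -0.89 (adjusted p = 0.00178), with no overlap of genotypes on either diet. Il1rap, whose product pairs with that receptor, was higher under LID, at 73.0 against 33.5 CPM (1.12, SE 0.13, adjusted p = 1.09e-05).

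The neuropeptide Y receptors were low. Npy1r had means of 1.29, 1.71, 2.08 and 1.73 CPM and Npy4r 0.611, 0.523, 0.0437 and 0.0369 CPM, and neither was called by genotype. Npy2r, Npy5r and Npy6r had too few counts to be tested. Of 12 genes of the system tested, which include peptide-processing enzymes, 3 were higher under LID (median -0.23) and 0 lower by edgeR or DESeq2, with 3 at an unadjusted p under 0.05. On ND 6 were lower and 3 higher, and the median of -0.65 turned to 0.06 with DESeq2. The sums of the C cell and parathyroid markers were also lower on ND, at 58.9% and 68.5% of WT. Pcsk2, a prohormone convertase gene, was lower on ND (-1.06, SE 0.20, adjusted p = 0.00203), as was Scg2, a granule protein gene (-1.06, SE 0.19, adjusted p = 0.00142). Pam, which encodes the enzyme that amidates peptides, was higher in Glis3-Pax8Cre mice by 1.00 (adjusted p = 0.000314) under LID and 0.97 (adjusted p = 0.00117) on ND, and the peptidase gene Dpp4 by 0.94 (adjusted p = 0.000732) and 1.14 (adjusted p = 0.000504). Mme, which encodes neprilysin, was higher under LID, at 83.9 against 15.2 CPM (2.47, SE 0.32, adjusted p = 5.12e-05).

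Several other S100 genes fell under LID more than on ND, unlike S100b. Of 15 tested genes of the family and its receptor, 6 were lower and 4 higher under LID, where the median of 0.07 turned to -0.09 with DESeq2, and 2 were lower and 3 higher on ND (median 0.15). S100a1 was lower under LID (-0.85, adjusted p = 0.000631), as were S100a4 (-1.20, adjusted p = 0.00122), S100a6 (-1.19, adjusted p = 0.000465), S100a10 (-0.65, adjusted p = 0.00235) and S100a16 (-0.67, adjusted p = 0.000443), each with no overlap of the groups of 4. The genotype difference of S100a4 was lower under LID than on ND by -1.88 (adjusted p = 0.00182), and that of S100a6 by -1.05 (adjusted p = 0.0285). The sum of the endothelial markers, given below, was also lower under LID, at 48.0% of WT, and was 132.6% on ND. Ager, the gene of the S100 receptor RAGE, had means of 931, 630, 152 and 580.5 CPM. It was higher in Glis3-Pax8Cre under LID (1.93, SE 0.22, adjusted p = 9.78e-06), and its genotype differences differed between diets by 2.5 (SE 0.30, adjusted p = 7.84e-05).

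**Figure D3:**
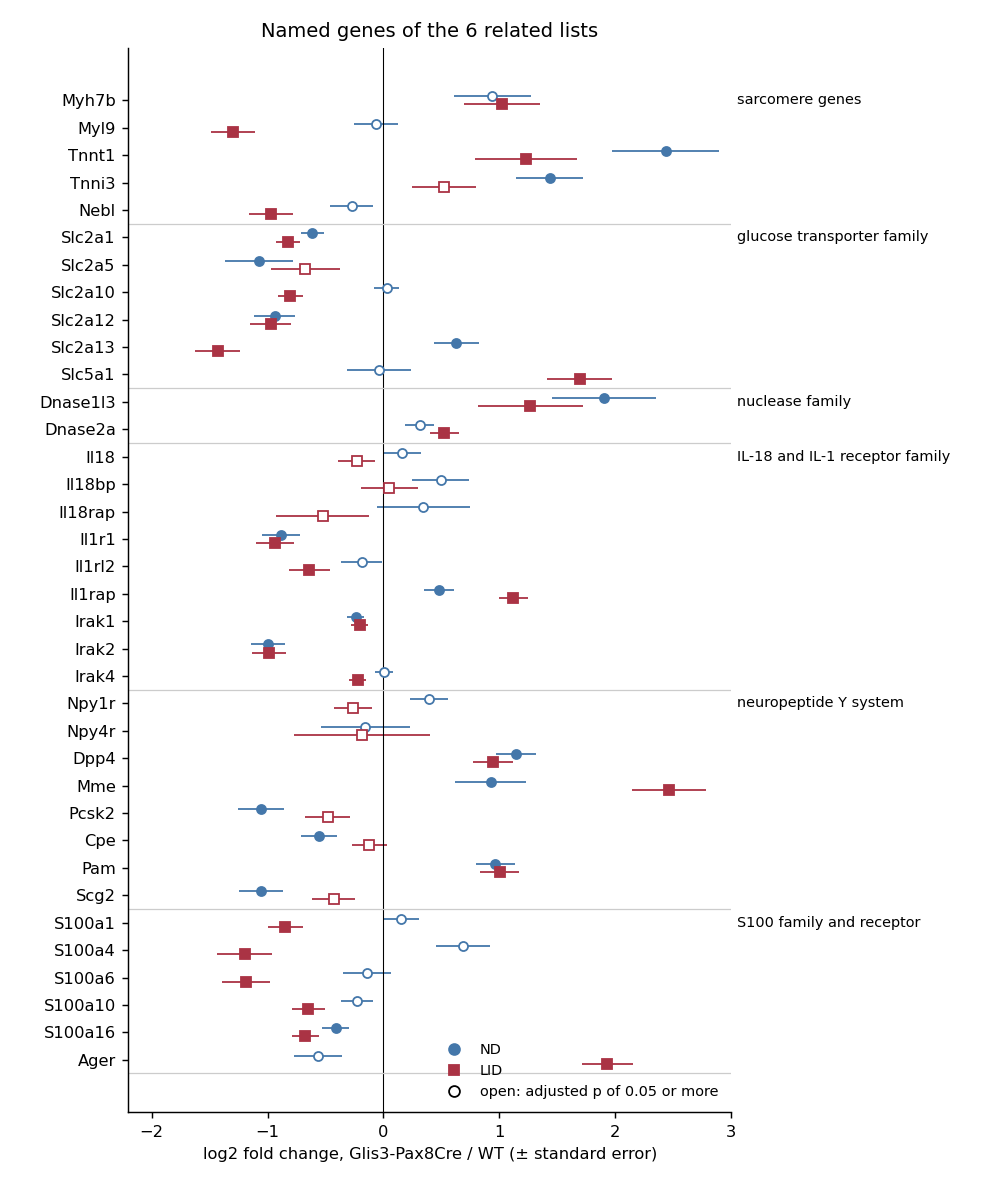
Log2 fold change (with standard error) of Glis3-Pax8Cre against WT on ND (blue circles) and under LID (red squares) for named genes of the 6 related lists; filled symbols had an adjusted p under 0.05. Tnnt2, Tnni1, Il1rl1 and Myh8 are not shown, and Myh8 was at 10.67 on ND and 3.46 under LID. Most points lie between -1.5 and 1.5, closer to 0 than those of Slc2a6, Il18r1, Npy and S100b.

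Of the calls made for named genes of these lists other than Tnnt2 and Tnni1, and of the neighbours described next, 28 of 34 under LID and 14 of 27 on ND were kept in every alternative. The calls that were lost in at least 1 alternative were those of Myh7b, Tnnt1, Dnase1l3, Irak1, Irak4 and Prmt2 under LID. On ND they were those of Myh8, Slc2a5, Slc2a13, Irak1, Il1rap, Mme, Cpe, S100a16, Slc39a13, Eci1, E4f1, Ccdc126 and Prmt2.

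By diet in WT mice, 23 of the 100 related genes were lower under LID and 17 higher, against 20.8% and 20.9% of all genes. Among Glis3-Pax8Cre mice 17 were lower and 5 higher, against 12.3% and 13.1%, and the lower count was 10 without Glis3-Pax8Cre(LID) replicate 3. In a fit of these 8 mice alone, 9 related genes were lower, or 11 with a replicate block that pairs same-numbered mice, and 1053 or 1348 of all genes, against 2039 in the fit of all 16. The difference of the genotype effects was called for 9 related genes in the lower and 6 in the higher direction, against 7.41% and 4.43% of all genes, and the 6 became 3 when replicate 3 of WT(LID) or of Glis3-Pax8Cre(LID) was left out. Over all genes the higher count of 737 became 440 and 432 without WT(LID) replicate 2 or 3. Scaling by library size alone moved the median of all genes by diet by -0.16 in WT, with 5204 lower and 2434 higher genes in place of 3467 and 3476, and by -0.13 in Glis3-Pax8Cre, with 3386 and 1297 in place of 2039 and 2184.

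The 24 nearest tested genes, 2 on each side of each member, each moved less under LID than the member beside it. Under LID 7 of the 24 were lower and 2 higher, against 15.4% and 14.9% of all genes, and on ND 6 were lower and 2 higher, against 9.25% and 10.3%. Adamtsl2, which lies 51383 bases from Slc2a6, was at means of 6.40, 5.33, 54.5 and 5.78 CPM. It was lower by -3.24 (SE 0.15, adjusted p = 1.69e-09) under LID, and its genotype differences differed between diets by -2.98 (SE 0.20, adjusted p = 5.91e-07). Adamtsl2 was thus high in WT(LID) alone, as Mybpc3 and Dnase1l2 were, whereas Slc2a6 fell on both diets. Cacfd1, only 276 bases from Slc2a6, had 56.4 CPM in WT and 54.6 CPM in Glis3-Pax8Cre mice under LID (-0.05, SE 0.14), which turned to 0.10 with library size alone and to 0.01 without Glis3-Pax8Cre(LID) replicate 4. Mymk and Adamts13, further from Slc2a6, were under 1 CPM in every group mean and were called under LID in opposite directions (-2.36, adjusted p = 0.00866, and 2.91, adjusted p = 0.000957).

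Beside Mybpc3, Madd at 844 bases was not called on either diet (-0.21 under LID and 0.11 on ND, SE 0.11 each), Nr1h3 was higher on both (0.57, adjusted p = 0.00545, and 0.60, adjusted p = 0.00705), and Spi1 was higher on ND (0.53, adjusted p = 0.0117). Beside Dnase1l2, E4f1 at 677 bases was lower under LID (-0.83, SE 0.11, adjusted p = 3.78e-05), and Pgp was lower there as well (-0.54, adjusted p = 0.00398). Next to Il18r1, Il1rl2 was lower under LID (-0.64, SE 0.18, adjusted p = 0.0117). Il1rl1, which ends 138 bases from Il18r1, was at -0.62 (SE 0.24, adjusted p = 0.0604) under LID. Il1rl1 passed the threshold with DESeq2, in the 8 LID mice alone, and when replicate 1 (-0.62) or 2 (-0.62) of WT(ND) or replicate 4 of Glis3-Pax8Cre(ND) (-0.63) was left out.

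The neighbours of Npy were 280736 bases or more away. Under LID 0 of these 4 were called by edgeR or DESeq2, and 0 had an unadjusted p under 0.05. Fam221a was lower on ND (-0.65, SE 0.13, adjusted p = 0.00371). Dip2a, beside S100b, was lower under LID (-0.52, SE 0.12, adjusted p = 0.00365). In the GENCODE transcripts the 3' parts of S100b and Dip2a share 1731 bases on opposite strands, and since fragments were counted without regard to strand, RNA of the 2 genes cannot be told apart there.

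**Figure D4:**
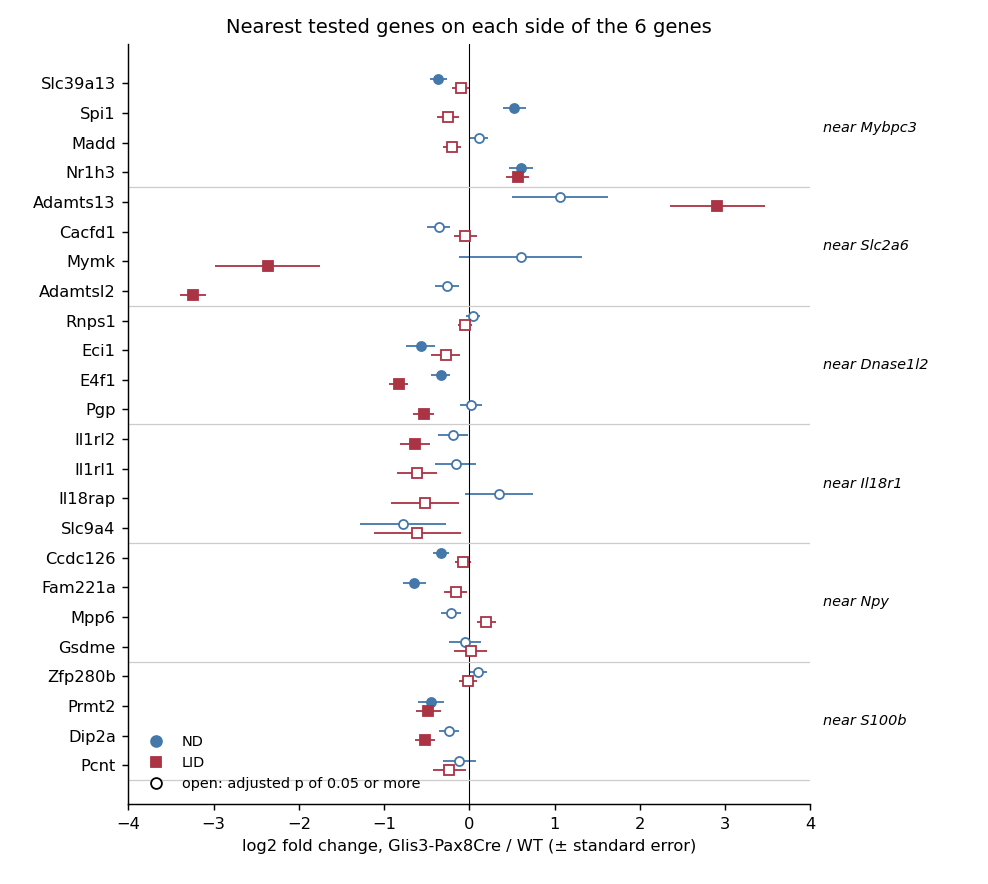
Log2 fold change (with standard error) of Glis3-Pax8Cre against WT on ND (blue circles) and under LID (red squares) for the 24 nearest tested genes, grouped by the member they lie beside; filled symbols had an adjusted p under 0.05. Adamtsl2 under LID (-3.24) is the lowest point, and most others lie within 1 of 0.

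Several of the 6 genes are known from other cell types, so the summed level of marker lists was set beside them. In bulk tissue, fewer cells of a type and less RNA per cell cannot be told apart, and which cells held the RNA of the 6 genes was not tested. The 13 follicular cell markers, with Tg the most abundant, summed to means of 260700, 156200, 276600 and 129900 CPM, so the Glis3-Pax8Cre mean was 59.9% of WT on ND and 47.0% under LID. That sum is nearly all Tg. The other 12 summed to means of 5144, 10660, 18110 and 23270 CPM, so that Glis3-Pax8Cre had 207.3% of WT on ND and 128.5% under LID. On ND Mybpc3 kept 56.8% and Dnase1l2 51.5%, and the other values of the 6 genes, on either diet, were 17.0% or lower.

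For Mybpc3, the 14 skeletal muscle markers (Acta1 the most abundant) summed to 28.7, 179, 712 and 27.4 CPM in the WT(ND) mice and 2058, 881, 17.6 and 662 CPM in the Glis3-Pax8Cre(ND) mice, replicates 1 to 4. The sums were 13.9, 107, 1712 and 180 CPM in the WT(LID) mice and 353, 1351, 11.7 and 419 CPM in the Glis3-Pax8Cre(LID) mice. Glis3-Pax8Cre(ND) replicate 1, with the highest sum, had no count of Mybpc3. It was also the shallowest library (13892352 pairs counted), in which 3 counts were 0.188 CPM. Levels like those of replicates 2 and 3 of its group (0.04841 and 0.03605 CPM) could not be told from 0 in it. WT(LID) replicate 3, with the next highest sum, had the lowest Mybpc3 level in its group. The 8 heart muscle markers (Actc1 the most abundant) summed to means of 3.54, 20.95, 10.04 and 21.8 CPM, the second of which rested on Glis3-Pax8Cre(ND) replicate 1 (60.03 CPM, against 10.57, 6.18 and 7.01 in its fellows), and Myh6 was under 0.1 CPM in every group. Whether muscle tissue was a source of Mybpc3 RNA was not tested.

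For Npy, the 8 C cell markers (Chga the most abundant, which is also on the parathyroid list) summed to 7578, 8120, 9855 and 7527 CPM in the WT(ND) mice and 6057, 5547, 4307 and 3566 CPM in the Glis3-Pax8Cre(ND) mice, replicates 1 to 4. The sums were 2572, 2627, 3950 and 2864 CPM in the WT(LID) mice and 3477, 3205, 1899 and 1533 CPM in the Glis3-Pax8Cre(LID) mice. Glis3-Pax8Cre kept 58.9% of the WT sum on ND and 84.2% under LID, against 10.2% and 17.0% for Npy. By diet, the C cell sum fell to 36.3% in WT and 51.9% in Glis3-Pax8Cre. Without Chga, the other 7 markers were at 49.3% and 80.2% by diet. By genotype those 7 were at 57.6% on ND and 93.7% under LID. The 10 sympathetic neuron markers (Uchl1 the most abundant) summed to means of 33.2, 25.4, 44.6 and 20.7 CPM, and Dbh was under 0.1 CPM in every group.

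For S100b, the 10 Schwann cell markers (Pmp22 the most abundant) summed to 315, 273, 261 and 326 CPM in the WT(ND) mice and 248, 273, 296 and 241 CPM in the Glis3-Pax8Cre(ND) mice, replicates 1 to 4. The sums were 246, 237, 243 and 252 CPM in the WT(LID) mice and 167, 229, 198 and 191 CPM in the Glis3-Pax8Cre(LID) mice. Glis3-Pax8Cre kept 90.0% of the WT sum on ND and 80.2% under LID, against 11.5% and 14.1% for S100b. That lower sum came from Pmp22, and the other 9 markers summed to 121.4% and 119.1% of WT. The adipocyte markers (Fabp4 the most abundant) had 59.1% of the WT sum on ND and 162% under LID.

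For Il18r1, the 12 T cell and thymocyte markers (Rag1 the most abundant) summed to 186.5, 51.9, 10.8 and 9.67 CPM in the WT(ND) mice and 12.4, 14.9, 14.02 and 3179 CPM in the Glis3-Pax8Cre(ND) mice, replicates 1 to 4. The sums were 5.15, 5.05, 262 and 5.17 CPM in the WT(LID) mice and 8.73, 9.21, 8.66 and 394 CPM in the Glis3-Pax8Cre(LID) mice. Glis3-Pax8Cre(ND) replicate 4, with by far the highest sum, had Il18r1 at 9.06 CPM, within the range of its fellows. The 8 markers of mast cells and basophils (Kit) summed to means of 74.4, 81.3, 32.3 and 49.0 CPM. That sum, most of it Kit, was 109.3% of WT on ND and 151.5% under LID in Glis3-Pax8Cre, and that of the other 7 markers 100.6% and 108.3%.

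For Dnase1l2, the 11 markers of stratified epithelium (Trp63 the most abundant) summed to 47.4, 61.9, 31.6 and 100.8 CPM in the WT(ND) mice and 39.0, 27.1, 29.3 and 114.5 CPM in the Glis3-Pax8Cre(ND) mice, replicates 1 to 4. The sums were 38.4, 41.1, 40.7 and 37.0 CPM in the WT(LID) mice and 38.1, 23.5, 25.6 and 29.8 CPM in the Glis3-Pax8Cre(LID) mice. WT(LID), the group with the most Dnase1l2, was not the group with the highest of these sums. Glis3-Pax8Cre had 86.8% of the WT sum on ND and 74.5% under LID, and 106.2% and 148.9% for the 10 markers other than Trp63. Whether epithelium was a source of Dnase1l2 RNA was not tested. Of the lists not tied to a member, parathyroid markers (Pth) had means of 9914, 6789, 2588 and 2133 CPM, macrophage markers (Lyz2) 331, 582, 407 and 446 CPM, and endothelial markers (Plvap) 911, 1208, 2284 and 1097 CPM. The endothelial sum was highest in WT(LID), as were Mybpc3, Dnase1l2 and Slc2a6, and Glis3-Pax8Cre kept 48.0% of it under LID, against 5.72% or less for those 3 genes.

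**Figure D5:**
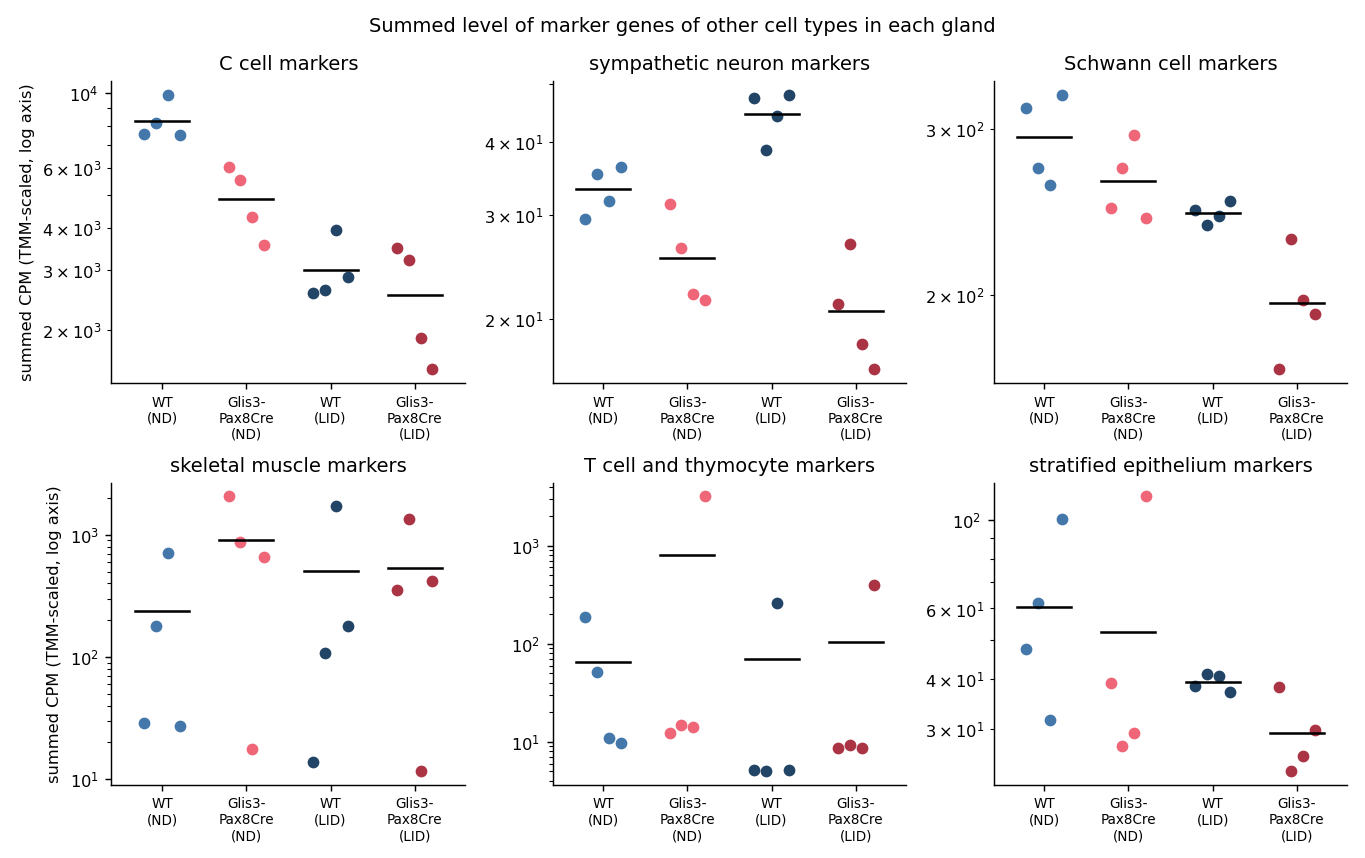
Summed CPM (log axis) of marker genes of 6 cell types in the 16 mice, by group; points are mice, replicates 1 to 4 from left to right, and bars are group means. The C cell sum, with Chga included, falls by diet more than by genotype, and the T cell sum is high in Glis3-Pax8Cre(ND) replicate 4 (3179 CPM).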

How the data were processed

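The authors deposited raw counts of read pairs per RefSeq gene, which had not been normalized. By the processing notes of the submitters, reads were mapped to mm10 with STAR 2.5 and counted with featureCounts 1.5.0-p1 of Subread as unstranded fragments. The age is from the labels, and the sex and the days on the diet are from the paper and the labels. Between 13892352 and 461077969 pairs were counted per mouse, so 3 counts, the limit that a count of 0 allows, were between 0.00674 and 0.188 CPM, which covers counting error only.

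Counts were fitted in R 4.3.3 with edgeR 4.0.16 (filterByExpr on the 4 groups, TMM, robust quasi-likelihood F test, Benjamini-Hochberg adjustment over the 16630 genes tested), with all 16 mice and 1 mean per group. The instrument of each library is not given, and the paper names 2, so a batch term could not be included. Standard errors were derived as the log2 fold change over the root of F. The 6 genes get no p. Alternatives were DESeq2 1.42.0, RLE normalization, library size alone, Tg left out, no filter, at least 10 counts in every mouse, only the 8 mice compared, a block by replicate number, and each of the 16 mice left out in turn. Replicate numbers were checked as pairs: over genes, deviations from the group mean of same-numbered mice correlated from 0.21 to 0.65 between the Glis3-Pax8Cre groups, so a replicate block in those 8 mice was added after seeing the data, and it gave 1348 lower genes by diet, against 1053 in the same mice without a block. In the other pairings the lowest correlation was negative.

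The members and lists were chosen with earlier results of these data known. Named were the 6 members, of each of 6 related lists at most 6 called genes with the highest mean CPM and the direct partners of a member, the 2 nearest tested genes on each side, the 3 genes most like a member among those with a mean of at least 1 CPM, and the most abundant gene of each marker list reported. Tnnt2 was added afterwards because its group means resemble those of Mybpc3, and Tnni1 as the last of the 4 genes of the sarcomere list lower under LID. The sum of 1 marker list and the level of 1 marker are not reported here. Chromosome positions are from the deposited counts, lengths from the GENCODE transcripts linked to RefSeq and promoters from RefSeq. The fit was first run on simulated counts, and no call given here rests on that run. In 24 pairs of libraries of a group, chi-squared per degree of freedom was 34.5 or more, and so none was a repeat of another.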

Additional observations from a re-analysis of the deposited data

Results flagged for a closer look

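In 24 sets of 4 mice, 6 genes in 4 groups, the gap of the highest or lowest mouse to its nearest fellow was compared with the whole range, a check that chance alone sets off in about 1 of 20 sets. It picked out 4 mice. Mybpc3 was far above its fellows in WT(ND) replicate 4 (0.479 CPM) and in Glis3-Pax8Cre(ND) replicate 4 (0.285 CPM). Slc2a6 was far above in WT(LID) replicate 1 (48.6 CPM), and Dnase1l2 far below in WT(ND) replicate 3 (4.63 CPM).

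For 13 of the 59 named genes tested, edgeR's interaction test found that the genotype difference under LID was not the same as on ND. It was lower under LID, as a difference of log2 fold changes, for Myl9 (-1.23), Slc2a10 (-0.83), Slc2a13 (-2.06), S100a1 (-1.0), S100a6 (-1.05), S100a4 (-1.88), Spi1 (-0.78), Adamtsl2 (-2.98) and E4f1 (-0.49). It was higher under LID for Slc5a1 (1.73), Il1rap (0.64), Mme (1.54) and Ager (2.5). Over all genes tested, 7.41% were lower and 4.43% higher by this test. Many of the named genes were chosen because they were called by genotype, so their count is not compared with these shares. The causes were not tested.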

How the results depend on the processing

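The genotype differences of the 6 genes under LID kept their direction in every alternative run, as did those on ND for all but Mybpc3. Leaving out 1 mouse at a time moved Mybpc3 on ND from -2.33 to 0.78, its diet difference in WT from 6.43 to 8.46, and the difference between diets of its genotype effects from -8.48 to -5.38. With library size alone Il18r1 under LID was -2.69 in place of -2.84, a shift below its SE of 0.27. Mybpc3 gave no value with at least 10 counts in every mouse, nor, in the 8 mice alone, on ND or by diet in Glis3-Pax8Cre, where it had too few counts.

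Leaving out 1 mouse at a time gave from 926 to 1659 lower and from 1120 to 2003 higher genes on ND, and from 432 to 759 genes with a higher genotype effect under LID. Related genes ranged from 8 to 14 higher under LID, from 8 to 15 higher on ND, from 10 to 21 lower by diet in Glis3-Pax8Cre and from 3 to 6 with a higher genotype effect under LID. Library size alone gave 4122 higher under LID, 935 lower and 2719 higher on ND, 5204 lower by diet in WT, 3386 lower and 1297 higher by diet in Glis3-Pax8Cre, and 26 related genes lower there. With only the 8 mice of a comparison, 781 were lower and 872 higher on ND (8 related genes higher), and 1053 were lower and 1321 higher by diet in Glis3-Pax8Cre (9 related genes lower). A replicate block in these 8 mice, chosen after seeing the data, gave 1348 lower genes and 11 related ones there. The causes were not tested.

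Same-numbered mice of the LID groups correlated from -0.52 to 0.10, those of the ND groups from -0.37 to -0.03 and the WT mice from -0.17 to 0.14. With so few pairs, these values cannot show whether such mice share more than a number. Of the remaining values of these results 1161 moved by less than the spread between mice or by less than 1.5 times. Of the values for single genes and lists, 2790 kept direction and side of the threshold, 158 fell below it, 30 rose past it and 94 changed in size or direction. At the depth of the shallowest library, Glis3-Pax8Cre(ND) replicate 1, levels of Mybpc3 under 0.188 CPM cannot be told from 0 in that library.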
